A study of Mus musculus with 3 samples.

Results

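Naive pluripotency is the ground state of the mouse epiblast before implantation and of embryonic stem (ES) cells kept in self-renewal conditions, and a set of transcription factors maintains it as an interlocked network. The chromatin around 7 of these genes is described here: *Nanog*, *Esrrb*, *Tfcp2l1*, *Zfp42*, *Prdm14*, *Tbx3* and *Nr5a2*. The Klf genes of the same network were left out of the set. Every deposited ATAC-seq peak that overlapped the annotated gene body or the 50 kb on either side of it was taken (GENCODE M21, mm10). This gave 120 of 129843 peaks in SOX2-ON, 113 of 131520 in SOX2-OFF and 118 of 130348 in CEpiLC, and the 3 lists merged into 176 regions around the 7 genes of 219488 in the genome. The genes were chosen by name and not by a rule on their peaks, but with earlier results of these data known.

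The 3 samples were single samples of mouse ES cells of the HM1 (129) background, collected at 72 h of differentiation towards caudal epiblast-like cells, with 50000 cells per sample. All 3 received 10 ng/ml bFGF with 5 µM LGK974, which blocks WNT secretion, and CHIR99021, which activates WNT signalling inside the cell, was added from day 2. SOX2-ON and SOX2-OFF came from an engineered *Sox2*-/- line, derived by picking clones, that carries a doxycycline-inducible *Sox2* transgene at *Hprt* and was kept in 1 µg/ml doxycycline as ES cells. Doxycycline stayed in the medium during differentiation for SOX2-ON (1 µg/ml) and was withdrawn for SOX2-OFF, while CEpiLC were wild-type for *Sox2* and received none. There was 1 sample per group, so no spread between replicates is known and no difference below was tested. Read counts are not part of the peak lists, so the depth behind each peak is unknown. Because the peak caller's −log10 p grows with depth, peaks were compared between lists by their percentile within their own list, where 100 is the strongest peak by −log10 p and 0 the weakest, and a peak is called strong when it is among the 20000 strongest of its list. The least strong of these 20000 had a −log10 p of 26.4 for SOX2-ON, 21.2 for SOX2-OFF and 10.6 for CEpiLC. A region without a peak is a region where the caller made no call, not one shown to be closed. In cultures measured in bulk, fewer cells with an open region and less opening per cell cannot be told apart.

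As background, NANOG, ESRRB, TFCP2L1, PRDM14, TBX3 and NR5A2 are DNA-binding or chromatin-directing proteins of the naive network, and ZFP42 (REX1) is a zinc finger protein used as its standard marker. SOX2 binds DNA together with OCT4 at many enhancers of this network, and most of its members are switched off as cells pass from the naive to the formative and primed epiblast. KLF factors, which recognise GGGNGTGG, are further members of the network, and ESRRB and NR5A2 are orphan nuclear receptors that share the recognition sequence CAAGGTCA.

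The sequences below come from the 4 strong peaks around these genes that had under 10% of their length covered in another list, plus an *Nr5a2* peak called in SOX2-ON alone and the *Nanog* promoter. For peaks the stretch of at most 300 bases with the most motif matches is shown, which is a choice and not a test. All are mm10, plus strand, and the *Nanog* promoter is the RefSeq entry (GRCm38.p6), trimmed to the 250 bases before the start. Of the 7 genes, 5 had an entry in the RefSeq promoter table. Capitals mark matches on either strand to SOX (ACAANGG), KLF (GGGNGTGG) or the composite OCT-SOX motif, for which at most 2 mismatches were allowed.
*Esrrb* intron, chr12:86480807-86481106, within a peak called in SOX2-ON alone: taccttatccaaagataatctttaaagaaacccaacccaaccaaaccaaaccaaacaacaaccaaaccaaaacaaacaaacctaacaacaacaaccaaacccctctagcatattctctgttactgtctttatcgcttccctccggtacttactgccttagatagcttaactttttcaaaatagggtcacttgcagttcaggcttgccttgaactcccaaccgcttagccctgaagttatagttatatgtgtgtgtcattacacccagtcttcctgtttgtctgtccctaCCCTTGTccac
*Zfp42* upstream, chr8:43320703-43321002, within a strong SOX2-ON peak that a SOX2-OFF peak covers in part: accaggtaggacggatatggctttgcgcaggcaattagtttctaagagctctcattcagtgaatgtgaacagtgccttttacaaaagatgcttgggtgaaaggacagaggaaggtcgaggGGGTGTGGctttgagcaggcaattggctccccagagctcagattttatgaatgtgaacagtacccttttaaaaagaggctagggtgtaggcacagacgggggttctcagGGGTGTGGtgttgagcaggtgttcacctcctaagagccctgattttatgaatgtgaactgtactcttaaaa
*Prdm14* downstream, chr1:13074906-13075205, within a strong SOX2-ON peak: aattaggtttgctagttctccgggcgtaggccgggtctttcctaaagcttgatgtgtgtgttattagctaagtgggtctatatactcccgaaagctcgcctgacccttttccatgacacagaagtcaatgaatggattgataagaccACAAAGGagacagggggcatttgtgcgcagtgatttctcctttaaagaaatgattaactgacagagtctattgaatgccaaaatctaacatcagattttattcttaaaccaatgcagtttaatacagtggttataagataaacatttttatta
*Nanog* downstream, chr6:122761061-122761305, the whole SOX2-OFF peak: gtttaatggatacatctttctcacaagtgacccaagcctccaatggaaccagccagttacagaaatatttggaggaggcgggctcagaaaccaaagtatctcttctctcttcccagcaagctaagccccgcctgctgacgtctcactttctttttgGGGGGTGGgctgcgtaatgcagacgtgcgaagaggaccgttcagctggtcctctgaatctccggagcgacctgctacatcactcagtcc
*Nr5a2* internal start, chr1:136940720-136940902, the whole SOX2-ON peak: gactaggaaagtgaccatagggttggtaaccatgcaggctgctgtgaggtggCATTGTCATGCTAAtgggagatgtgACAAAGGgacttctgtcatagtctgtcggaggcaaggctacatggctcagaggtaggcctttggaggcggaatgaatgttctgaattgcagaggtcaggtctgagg
*Nanog* promoter, chr6:122707239-122707488: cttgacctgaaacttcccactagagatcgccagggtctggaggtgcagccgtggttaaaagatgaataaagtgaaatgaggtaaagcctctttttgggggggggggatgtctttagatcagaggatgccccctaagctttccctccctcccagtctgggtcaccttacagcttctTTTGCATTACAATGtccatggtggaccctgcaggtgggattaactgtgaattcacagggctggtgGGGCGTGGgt
The capitals in the *Esrrb* stretch are a SOX match on the minus strand and those in the *Prdm14* stretch a SOX match on the plus strand. Outside the printed stretch, the same *Prdm14* peak also held a CAAGGTCA match at chr1:13074039-13074046. The *Zfp42* stretch held 2 KLF matches and the downstream *Nanog* peak 1. The *Nr5a2* peak held an OCT-SOX match with 1 mismatch followed by a SOX match. In the *Nanog* promoter an OCT-SOX match on the minus strand ended 61 bases before the start, and a KLF match lay beside the start. A match is a description of letters and not a binding site. Among 32851 promoter entries of the same length, 0.804% held an OCT-SOX match and 15.9% a KLF match.

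Peaks were found around all 7 genes in all 3 lists. The windows held a median of 16 peaks in SOX2-ON compared with 14 in SOX2-OFF and 15 in CEpiLC, against medians of 11, 11 and 12 over 21938 coding genes. *Zfp42* stood out for the change in number, with 12 peaks for SOX2-ON, 11 for SOX2-OFF and 3 for CEpiLC. Its window was covered by peaks over 8.96% of its length in SOX2-ON compared with 9.49% in SOX2-OFF and 0.978% in CEpiLC. *Esrrb*, the longest of the 7 genes, ran the other way, with 24 peaks for SOX2-ON, 26 for SOX2-OFF and 37 for CEpiLC. *Nr5a2* had 16 peaks in SOX2-ON compared with 7 in SOX2-OFF and 9 in CEpiLC. *Nanog* had 22, 24 and 18 peaks in the same order and *Tbx3* had 15, 17 and 21. *Tfcp2l1* (16, 14 and 15) and *Prdm14* (15, 14 and 15) kept nearly the same number in each list.

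**Figure D1:**
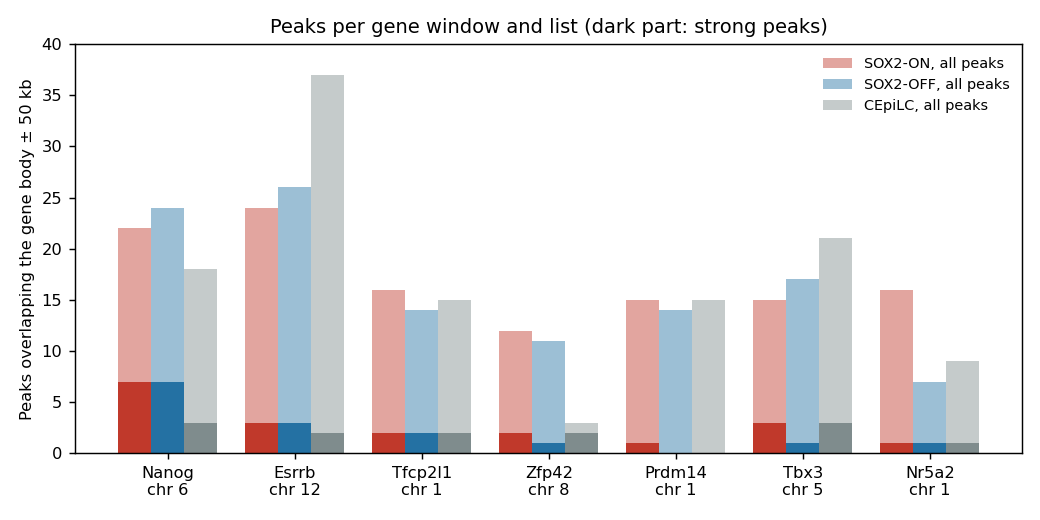
Number of deposited peaks (vertical axis) overlapping each gene body and the 50 kb on either side, for SOX2-ON, SOX2-OFF and CEpiLC, with the strong peaks as the dark part of each bar and the chromosome under each gene. *Zfp42* had 3 peaks in CEpiLC, *Esrrb* reached 37 there, and *Nanog* had 7 strong peaks in each sample of the engineered line against 3 in CEpiLC.

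Chromosomes 6 and 8, which carry *Nanog* and *Zfp42*, held more of the peak list in the engineered line. Chromosome 6 took 14.8% of all peaks for SOX2-ON, 15.3% for SOX2-OFF and 4.84% for CEpiLC, and chromosome 8 took 12.5%, 12.1% and 4.55%. For these 2 genes a difference between the engineered line and CEpiLC therefore cannot be told apart from the excess of the whole chromosome. SOX2-ON and SOX2-OFF both carried the excess. The other 5 genes lie on chromosomes 1, 5 and 12, whose shares were 5.62%, 5.52% and 3.62% in SOX2-ON and 5.88%, 6.08% and 4.22% in CEpiLC.

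Every gene had an open start in all 3 lists. Each of the 7 genes had at least 1 peak within 1 kb of an annotated start in every list, where 74.9%, 75.8% and 76.3% of coding genes had one in SOX2-ON, SOX2-OFF and CEpiLC. The strongest start peak of *Tfcp2l1*, a factor of the CP2 family, lay at percentile 93.7 in SOX2-ON compared with 96.1 in SOX2-OFF and 96.4 in CEpiLC. *Zfp42* lay at 94.5, 93.9 and 93.0. *Tbx3*, a T-box factor, lay at 94.6, 94.0 and 92.9. The start peaks of these 3 genes were thus strong in every list, with CEpiLC within 3 points of SOX2-ON. *Nr5a2* lay at 87.3, 86.6 and 88.7. *Nanog*, the homeobox factor of the network, lay at 88.0 for SOX2-ON, 87.2 for SOX2-OFF and 83.1 for CEpiLC, where it was no longer among the strong peaks. *Prdm14*, a PR-domain protein also needed by primordial germ cells, had the weakest start peak of the set in each list, at 65.8, 69.8 and 76.5. Its start was strong in none of the 3, whereas 60.0% of coding genes had a strong start peak in SOX2-ON compared with 62.4% in SOX2-OFF and 61.7% in CEpiLC.

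**Figure D2:**
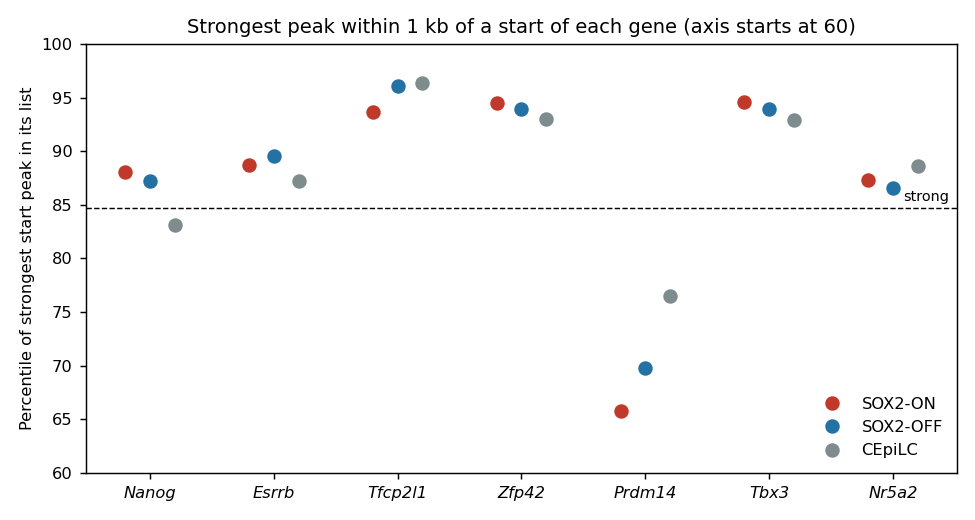
Percentile, within its own list, of the strongest peak within 1 kb of any annotated start of each gene (vertical axis, starting at 60), 1 point per sample. The dashed line marks the limit of the strongest 20000 peaks (84.6 to 84.8 in the 3 lists), which all genes but *Prdm14* passed in SOX2-ON and SOX2-OFF and which *Nanog* missed in CEpiLC (83.1).

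Start peaks of like percentile differed in width. At *Zfp42* the start peak was 1860 bp wide for SOX2-ON, 1814 bp for SOX2-OFF and 300 bp for CEpiLC, although its percentile hardly moved. At *Tfcp2l1* the widths were 1106, 1113 and 1111 bp, the most even of the set. At *Prdm14* the caller joined 4106 bp in SOX2-OFF against 2129 bp in SOX2-ON. Over the 57 regions around the 7 genes that all 3 lists covered, the median width was 1145 bp in SOX2-ON compared with 1284 bp in SOX2-OFF and 918 bp in CEpiLC, beside 1006, 1159 and 902 bp over the 59284 such regions of the genome.

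*Esrrb* has 3 separate start regions among these peaks, which behaved differently. The upstream start had no peak in SOX2-ON and weak peaks in SOX2-OFF (percentile 36.4) and CEpiLC (32.3). A start 60.8 kb inside the gene lay at 81.0 for SOX2-ON, 89.6 for SOX2-OFF and 87.2 for CEpiLC. A start 109.5 kb inside lay at 88.7 in SOX2-ON compared with 83.1 in SOX2-OFF and 77.2 in CEpiLC. The order of the 3 samples at the last start was thus the reverse of that at the start 60.8 kb inside for SOX2-ON and SOX2-OFF.

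The merged regions were classed by the lists that covered them. All 3 lists covered 57 of the 176 regions (32.4%, against 27% of all merged regions). SOX2-ON alone covered 32 (18.2%, against 16.9%), SOX2-OFF alone 17 (9.66%, against 15.1%) and CEpiLC alone 25 (14.2%, against 20.3%). SOX2-ON and SOX2-OFF without CEpiLC covered 17 (9.66%, against 10.5%), and 10 of these 17 lay around *Nanog* and *Zfp42*. SOX2-OFF and CEpiLC without SOX2-ON covered 19 (10.8%, against 6.92%), of which 8 lay around *Esrrb*. SOX2-ON with CEpiLC and without SOX2-OFF covered 9 (5.11%, against 3.28%). The shares around the 7 genes therefore stayed within 7 percentage points of those of the genome in each class.

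**Figure D3:**
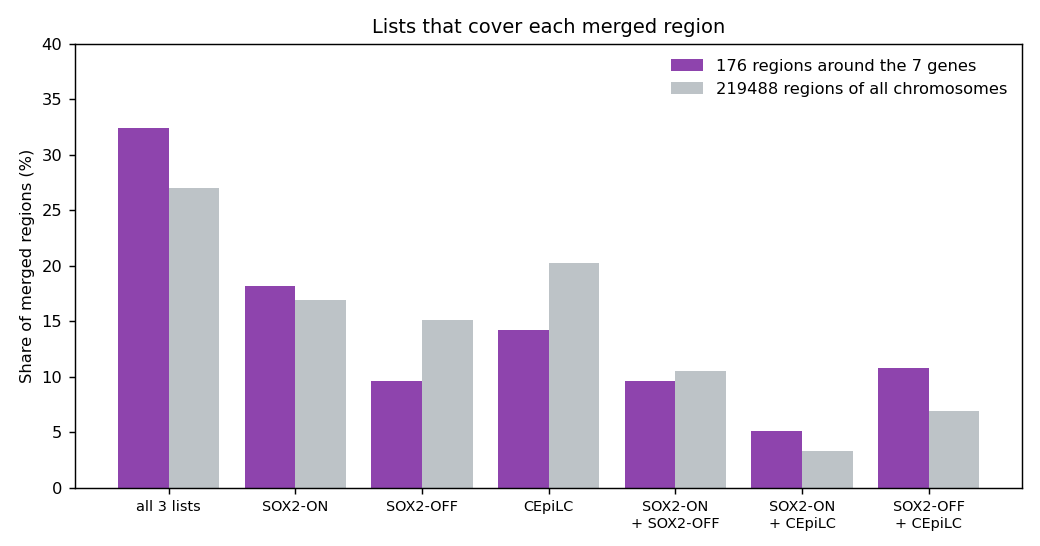
Share of merged regions (vertical axis, %) covered by each combination of the 3 lists, for the 176 regions around the 7 genes and the 219488 regions of all chromosomes. The share covered in all 3 lists was 32.4% against 27%, and that covered in CEpiLC alone 14.2% against 20.3%.

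Regions seen in a single list were mostly weak. Those in SOX2-ON alone had a median percentile of 30.1 (range 0.553 to 89.3), those in SOX2-OFF alone 17.8 (2.18 to 42.1) and those in CEpiLC alone 23.3 (1.27 to 58.8). The medians over the genome were 30.8, 23.1 and 28.3. No region around the 7 genes that was called in SOX2-OFF alone or in CEpiLC alone reached the strong peaks, and 1 called in SOX2-ON alone did, in *Esrrb*.

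**Figure D4:**
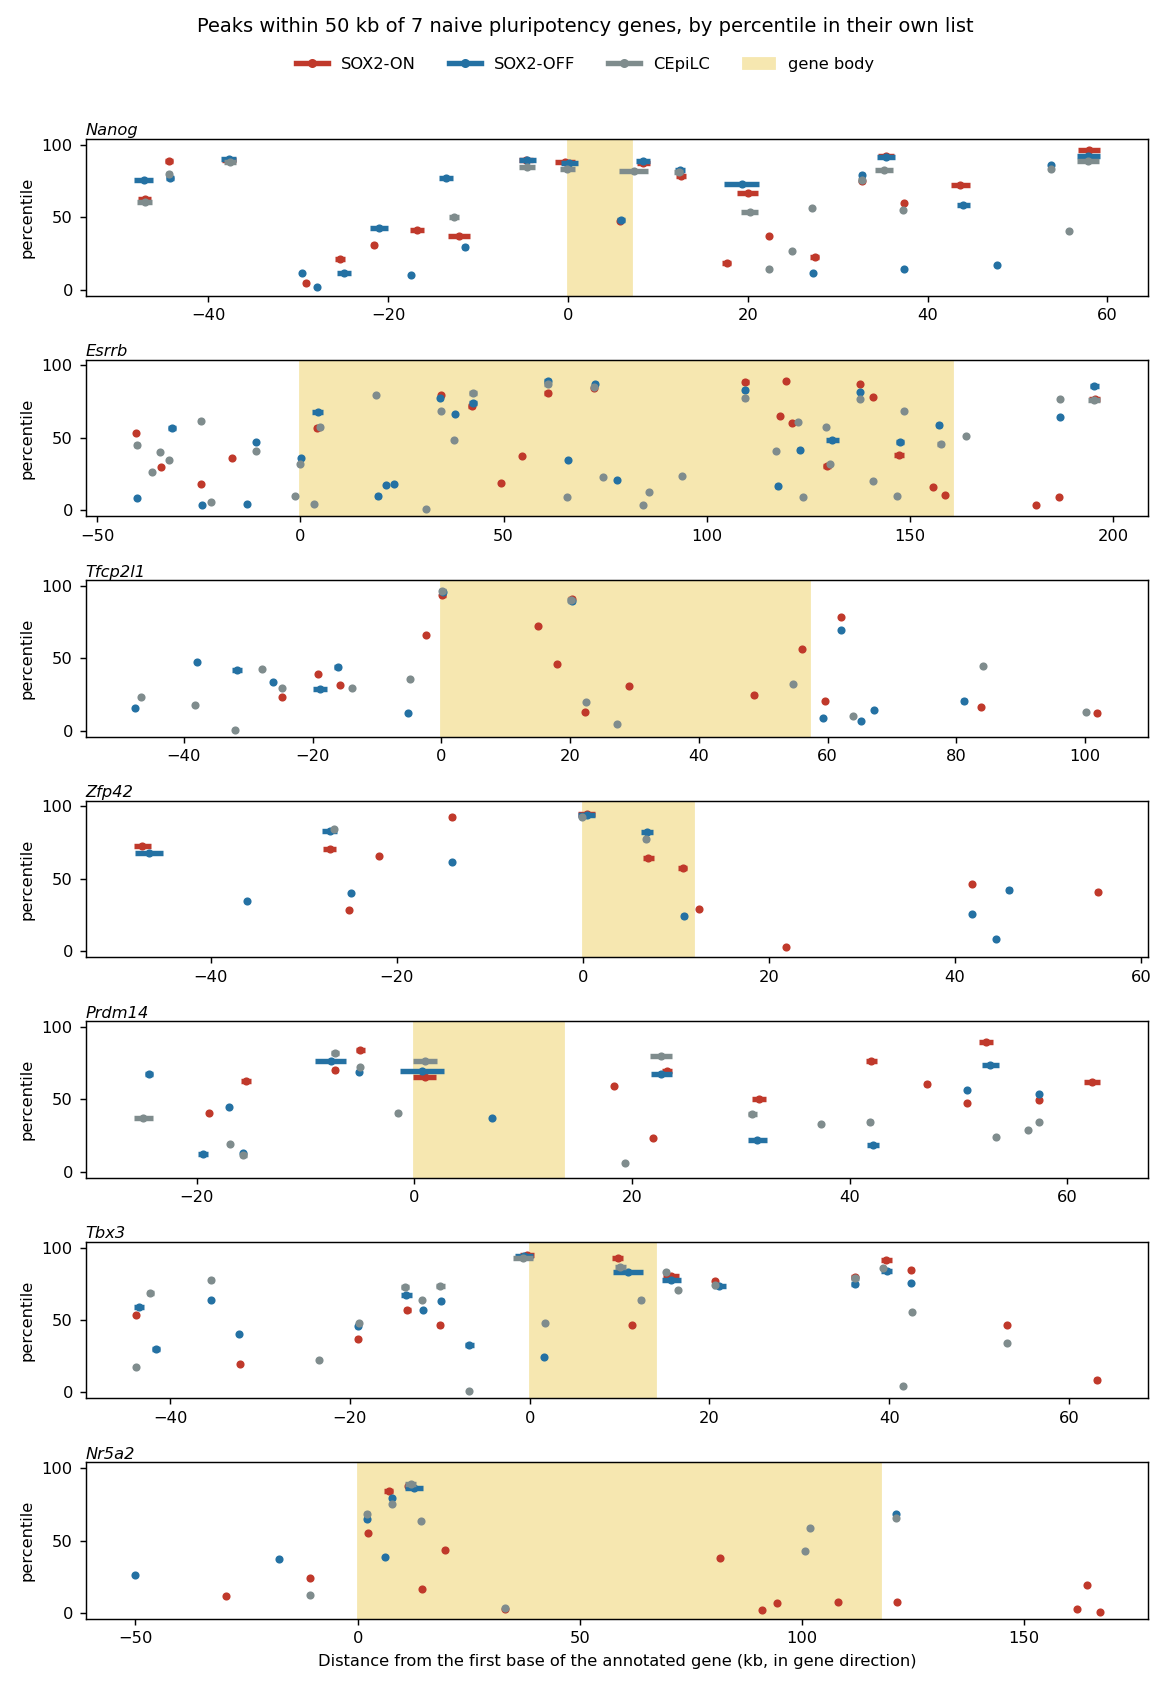
Every peak around the 7 genes, drawn to scale by its distance from the first base of the annotated gene in the direction of transcription (horizontal axis, kb) and its percentile in its own list (vertical axis); bars show peak width and the shaded band the gene body. The red point alone at percentile 89.3 in the *Esrrb* intron, the red point at 93.0 upstream of *Zfp42* and the sparse grey CEpiLC points of *Zfp42* can be read from it.

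Strong peaks around the 7 genes numbered 19 for SOX2-ON, 15 for SOX2-OFF and 13 for CEpiLC. They were 15.8%, 13.3% and 11.0% of the peaks in these windows, beside 15.4%, 15.2% and 15.3% of the whole lists. The *Nanog* window held 7 in SOX2-ON compared with 7 in SOX2-OFF and 3 in CEpiLC. For SOX2-ON and SOX2-OFF, 1 of the 7 lay at an annotated start of the neighbouring gene *Slc2a3*. Without *Nanog* and *Zfp42* the numbers of strong peaks were 10, 7 and 8. Of the 19 strong SOX2-ON peaks, 1 (5.26%) had under 10% of its length covered in SOX2-OFF, against 5.04% of all strong SOX2-ON peaks. In CEpiLC, 3 of the 19 (15.8%) were missing by the same rule, against 8.58%. Of these 3, 1 lay around *Zfp42* on chromosome 8, where the excess of the whole chromosome cannot be told apart. Without *Nanog* and *Zfp42*, 2 were missing from CEpiLC. With the limit at the strongest 50000 SOX2-ON peaks, 11 of 50 were missing from CEpiLC, against 24.0%. Of the 15 strong SOX2-OFF peaks, 1 (6.67%) was missing from SOX2-ON, against 1.3%, and 0 were missing from CEpiLC, against 1.06%. Of the 13 strong CEpiLC peaks, 0 were missing from SOX2-ON and 0 from SOX2-OFF, against 1.42% and 0.62%. With 13 to 19 peaks a single peak moves such a share by more than 5 percentage points, so the shares near the background are no result about these genes.

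The *Esrrb* peak missing from both other lists lay in an intron at chr12:86480163-86481106, 119.5 kb inside the gene. ESRRB acts downstream of GSK3 inhibition in naive cells. The peak ranked 13918 in SOX2-ON (percentile 89.3) with a fold enrichment of 3.12 over the local background of its library. Neither SOX2-OFF nor CEpiLC had a peak there. Among the 5001 SOX2-ON peaks of nearest rank, 7.04% were missing from both other lists, so such a peak was not rare at this strength. Next to it, 121.0 kb inside the gene, a second region was called in SOX2-ON alone at percentile 60.2. A region 140.8 kb inside lay at 78.4 in SOX2-ON and 20.3 in CEpiLC and had no peak in SOX2-OFF. A region 117.5 kb inside lay at 65.3 for SOX2-ON, 16.5 for SOX2-OFF and 40.6 for CEpiLC. The CEpiLC peak of that region did not overlap the SOX2-ON peak. Between 109.5 and 140.8 kb inside the gene, 6 of 8 regions, with that start and the intron 137.7 kb inside (86.9, 81.9 and 76.8) among them, had their highest percentile in SOX2-ON. These regions were picked after their values were seen. Downstream of the gene, by contrast, a region at chr12:86547736-86548286 lay at 9.17 in SOX2-ON compared with 64.7 in SOX2-OFF and 77.2 in CEpiLC. *Esrrb* thus held regions that were higher in SOX2-ON and regions that were higher in the other samples.

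*Zfp42* had few surrounding peaks in CEpiLC but a strong start peak, and its chromosome as a whole also held a smaller share of that list. The peak 14.1 kb upstream, chr8:43320703-43321392, ranked 9096 in SOX2-ON (percentile 93.0, fold enrichment 5.65), lay at 61.4 in SOX2-OFF (fold enrichment 1.75) and had no peak in CEpiLC. Of the 5001 SOX2-ON peaks of nearest rank, 4.78% were missing from CEpiLC. A region 21.9 kb upstream was called in SOX2-ON alone, at percentile 66.1. A region over an exon lay at 64.7 for SOX2-ON, 82.3 for SOX2-OFF and 77.9 for CEpiLC, so it was lowest in SOX2-ON. A region 27.2 kb upstream lay at 70.9 in SOX2-ON compared with 82.8 in SOX2-OFF and 84.8 in CEpiLC and was 1402, 1682 and 195 bp wide. The CEpiLC list therefore kept 3 peaks around *Zfp42*, and their median percentile was 84.8.

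Of the 7 genes, *Prdm14* had the largest median difference of SOX2-ON minus SOX2-OFF over its shared regions, 15.4 percentile points over 11 regions. The strong SOX2-ON peak at chr1:13074029-13075302, 38155 bp beyond the end of the gene, ranked 13384 (percentile 89.7, fold enrichment 3.30). The merged region around it held peaks at 73.6 in SOX2-OFF and 24.3 in CEpiLC, and the CEpiLC peak did not overlap the SOX2-ON peak. Of the 5001 SOX2-ON peaks of nearest rank, 12.7% were missing from CEpiLC. A region 42.1 kb from the start lay at 76.4 for SOX2-ON, 18.4 for SOX2-OFF and 34.2 for CEpiLC. A region 15.5 kb upstream lay at 63.0, 13.2 and 11.9 in the same order. The region 4.96 kb upstream lay at 84.3 in SOX2-ON compared with 68.9 in SOX2-OFF and 72.1 in CEpiLC. Further downstream, a region 62.3 kb from the start was called in SOX2-ON alone, at 62.3. The start itself went the other way, lowest in SOX2-ON. The region with the largest excess over SOX2-ON in both other samples lay 24.9 kb upstream, over the body of the neighbouring gene *Ncoa2*. It was within 1 kb of an annotated *Ncoa2* transcript start, with no peak for SOX2-ON, 67.8 for SOX2-OFF and 37.1 for CEpiLC.

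*Nanog* had the most peak-covered window of the 7 in each list, at 25.2% of its length in SOX2-ON compared with 26.5% in SOX2-OFF and 17.9% in CEpiLC. The region 4.52 kb upstream of the start lay at 89.4 for SOX2-ON, 89.9 for SOX2-OFF and 85.1 for CEpiLC. A region 44.3 kb upstream lay at 89.2 in SOX2-ON compared with 76.9 in SOX2-OFF and 80.1 in CEpiLC. The strongest peak of the window, 57.9 kb from the start and within the annotated neighbour *Slc2a3*, a glucose transporter gene, lay at 96.7, 92.2 and 89.1. These 3 regions were covered in all lists and were highest or close to highest in SOX2-ON. By contrast, a region 12.6 kb upstream lay at 37.2 in SOX2-ON compared with 76.9 in SOX2-OFF and 49.9 in CEpiLC. Over the 19 regions shared with SOX2-OFF, 9 were higher in SOX2-ON, and the median difference of SOX2-ON minus SOX2-OFF was -0.439 points. The region with the largest excess of SOX2-ON over the other samples lay 16.8 kb upstream, at 41.5 for SOX2-ON, 10.6 for SOX2-OFF and none for CEpiLC. The strong SOX2-OFF peak without a SOX2-ON peak, chr6:122761061-122761305, was only 245 bp wide (percentile 86.1, fold enrichment 1.97) and lay at 83.7 in CEpiLC. It also lay within the annotated body of *Slc2a3*. Of the 5000 SOX2-OFF peaks of nearest rank, 4.3% were missing from SOX2-ON, and by fold enrichment this peak was not among the strongest 20000.

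*Tbx3* and *Tfcp2l1* had no region covered in both samples that was higher in SOX2-ON than in SOX2-OFF by 20 percentile points. At *Tbx3*, the region over an internal start 11.0 kb inside lay at 92.6 in SOX2-ON compared with 83.3 in SOX2-OFF and 86.4 in CEpiLC. A region 39.7 kb from the start lay at 91.4, 84.1 and 85.6, and one at 42.5 kb at 84.5, 75.7 and 55.5. A region 35.4 kb upstream of *Tbx3* had no peak in SOX2-ON and lay at 63.7 in SOX2-OFF and 77.6 in CEpiLC. The CEpiLC peak of that region held an OCT-SOX match with at most 2 mismatches. The region 53.1 kb from the start had no SOX2-OFF peak and lay at 46.7 in SOX2-ON and 34.1 in CEpiLC. At *Tfcp2l1*, the strong intron region 20.1 kb inside the gene lay at 91.2 for SOX2-ON, 89.3 for SOX2-OFF and 90.5 for CEpiLC. An intron region 15.0 kb inside was called in SOX2-ON alone at 72.5, as was a region 2.36 kb upstream at 66.0. In the opposite direction, a region 38.1 kb upstream had no SOX2-ON peak and lay at 47.8 in SOX2-OFF and 17.7 in CEpiLC.

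Around *Nr5a2*, the regions called in SOX2-ON alone were numerous and weak. It encodes a nuclear receptor that can activate *Pou5f1*, the gene of OCT4. Of its 19 merged regions, 9 were called in SOX2-ON alone, at percentiles from 0.553 to 43.7. The highest of the 9 is the 183 bp peak printed above, which lies within 1 kb of an internal start, 19.6 kb inside the gene, over an annotated exon and no UTR. The region of the strongest start, 12.7 kb inside, lay at 87.3 in SOX2-ON compared with 86.6 in SOX2-OFF and 88.7 in CEpiLC. The start 7.05 kb inside lay at 84.1, 79.3 and 75.3. Beyond the end of the gene, chr1:136838885-136839634 lay at 7.44 for SOX2-ON, 68.3 for SOX2-OFF and 65.9 for CEpiLC.

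Among regions covered in both lists, percentiles were compared by a shift of at least 20 points. SOX2-ON was higher than SOX2-OFF in 11 of 74 regions (14.9%, against 9.94% of all regions covered in both), and SOX2-OFF was higher in 4 (5.41%, against 14.9%). Around these genes the shifts were therefore more often towards SOX2-ON, while those of the genome were more often towards SOX2-OFF. The 11 regions were 4 of 11 at *Prdm14*, 3 of 8 at *Zfp42*, 2 of 19 at *Nanog* and 2 of 14 at *Esrrb*, and there were 0 at *Tfcp2l1*, *Tbx3* and *Nr5a2*. Without *Nanog* and *Zfp42*, 6 regions were higher in SOX2-ON and 3 in SOX2-OFF. These were out of 14 shared regions at *Esrrb*, 6 at *Tfcp2l1*, 11 at *Prdm14*, 12 at *Tbx3* and 4 at *Nr5a2*. In 1 of the *Prdm14* shifts, 19.3 kb upstream, a SOX2-ON peak of 346 bp and a SOX2-OFF peak of 889 bp overlapped only at their ends, in a region of 1213 bp. With peaks ordered by fold enrichment, 11 regions were higher in SOX2-ON and 7 in SOX2-OFF. The median difference of SOX2-ON minus SOX2-OFF was 0.769 points over the 74 regions and -1.65 points over all 82323. By gene it ran from -4.63 at *Nr5a2* to 15.4 at *Prdm14*. With 1 sample per group, whether the difference from the genome exceeds the spread between cultures cannot be tested.

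Against CEpiLC the shifts were even. SOX2-ON was higher in 8 of 66 regions (12.1%, against 11.4%) and CEpiLC in 8 (12.1%, against 16.5%). Those higher in SOX2-ON include the *Esrrb* region 117.5 kb inside and the *Prdm14* region around chr1:13074029-13075302. In both, the SOX2-ON and CEpiLC peaks shared no base and were joined only through a SOX2-OFF peak. The *Prdm14* peak is thus counted both as missing from CEpiLC and as shifted. SOX2-OFF was higher than CEpiLC in 11 of 76 (14.5%, against 12.1%) and CEpiLC in 10 (13.2%, against 10.7%). Of the 8 regions higher in CEpiLC than in SOX2-ON, 4 lay around *Esrrb*.

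**Figure D5:**
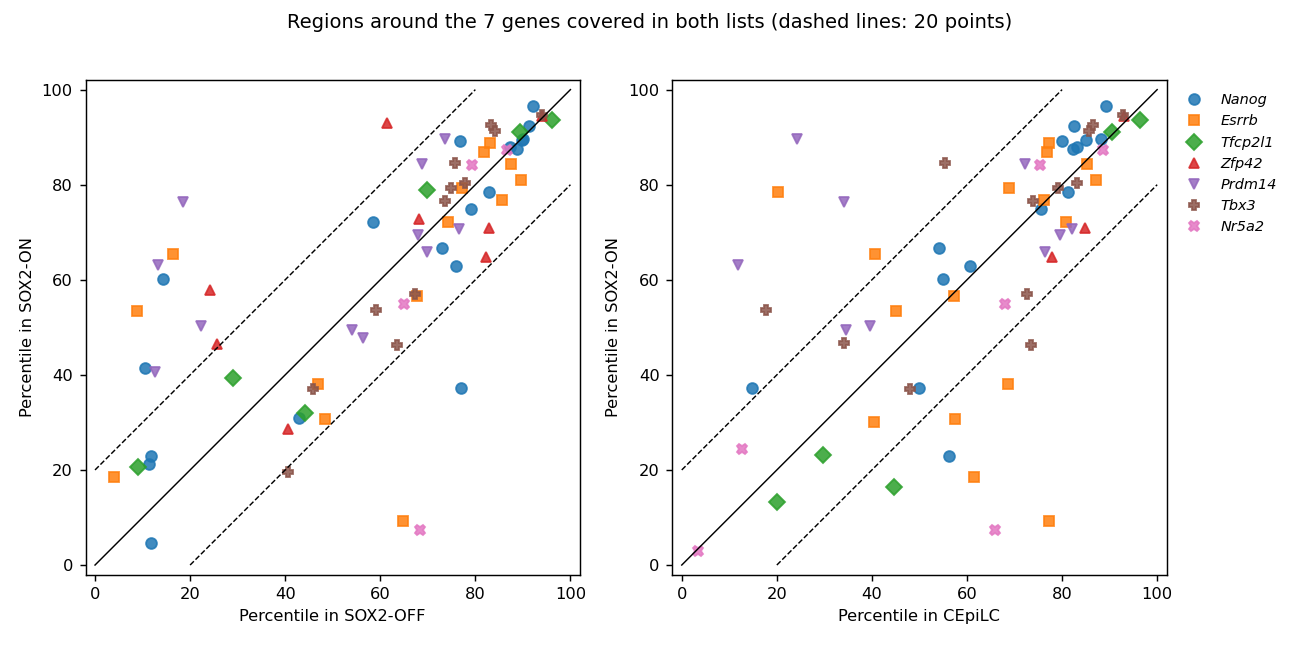
Percentile in SOX2-ON (vertical axes) against that in SOX2-OFF (left, 74 regions) and CEpiLC (right, 66 regions) for regions around the 7 genes covered in both lists, 1 point per region; the solid line marks equality and the dashed lines 20 points. On the left 11 points lie above the upper dashed line and 4 below the lower one, and on the right 8 and 8.

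Width was compared by a ratio of at least 3. SOX2-ON peaks were wider than SOX2-OFF peaks in 3 of 74 regions (background 2.42%) and narrower in 3 (7.48%). SOX2-ON peaks were wider than CEpiLC peaks in 6 of 66 (6.94%) and narrower in 1 (3.82%). SOX2-OFF peaks were wider than CEpiLC peaks in 10 of 76 (9.65%) and narrower in 1 (1.8%). The numbers stayed near the background, and 2 of the 3 *Zfp42* regions shared with CEpiLC were among those wider in SOX2-ON.

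The regions around the 7 genes were searched for 7 motifs in their central 300 bases, beside all 219488 regions. SOX letters (ACAANGG) were in 45 of 176 regions (25.6%, against 17.4%), and KLF letters in 29 (16.5%, against 11.7%). The letters shared by ESRRB and NR5A2 (CAAGGTCA) were in 8 (4.55%, against 2.15%), of which 4 lay around *Esrrb* itself. TCF/LEF (CTTTGAT) was in 10 (5.68%, against 5.01%), with 5 of them around *Nanog*. OCT (ATGCAAAT) was in 3 (1.70%, against 1.90%), OCT-SOX in 2 (1.14%, against 1.30%) and T-box (AGGTGTGA) in 3 (1.70%, against 1.67%). The OCT-SOX matches described above for the *Nanog* promoter and the *Tbx3* peak lay outside the central 300 bases and are not in these counts. The same holds for the SOX matches printed for *Esrrb* and *Prdm14*. SOX letters were as common in regions of these genes covered by all 3 lists (16 of 57, 28.1%) as in those of SOX2-ON alone (9 of 32, 28.1%). Over the genome the shares were 15.8% and 23.7% for the same classes. In regions of SOX2-OFF and CEpiLC without SOX2-ON, 2 of 19 held them (10.5%, against 15.2%). Regions differ in base composition and repeats, which were not matched here.

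Other genes of the pluripotency network, 18 in number, included *Sox2*, *Pou5f1* and the Klf genes. They showed a like share of strong SOX2-ON peaks missing from CEpiLC, with 9 of 53 (17.0%, against 8.58% of all) spread over 7 genes. Of these 9, 2 lay around *Klf2* on chromosome 8, where the excess of the whole chromosome cannot be told apart. From SOX2-OFF, 3 of the 53 (5.66%) were missing, near the 5.04% of all strong SOX2-ON peaks. None of the 47 strong SOX2-OFF peaks around these 18 genes was missing from SOX2-ON, against 1.3% of all. None of the 45 strong CEpiLC peaks was either, against 1.42%. Their shared regions ranked higher in SOX2-ON than in SOX2-OFF in 29 of 186 (15.6%, against 9.94% of all regions). They ranked lower in 27 (14.5%, against 14.9%), nearly as often in each direction. The window of *Dppa3* overlaps that of *Nanog*, so the lists share some peaks. *Dppa4* and *Dppa5a* had no start peak in CEpiLC. Among 10 genes of the formative and primed epiblast, 0 of 36 strong SOX2-ON peaks were missing from either list, against 5.04% for SOX2-OFF and 8.58% for CEpiLC. Peaks were summed gene by gene, so a peak in the windows of both *Zic2* and *Zic5*, on chromosome 14, counts for each. In the reverse direction, 2 of 38 strong CEpiLC peaks, both around *Etv4*, were missing from SOX2-ON (5.26%, against 1.42% of all). *Etv4* lies on chromosome 11, where the median difference of SOX2-ON minus CEpiLC was -5.72 points over 5704 shared regions, against -1.64 over the genome. The 2 peaks cannot be told apart from this difference of the whole chromosome. Of 40 strong SOX2-OFF peaks, 1, around *Zic2*, was missing from CEpiLC (2.5%, against 1.06%). Around these 10 genes, SOX2-ON was higher than SOX2-OFF in 11 of 112 regions (9.82%, against 9.94% of all) and lower in 18 (16.1%, against 14.9%). These shares were near those of the genome. CEpiLC was higher than SOX2-ON in 24 of 115 (20.9%, against 16.5%).

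Identity of the cultures can be checked only through peaks at marker starts, since no RNA is part of these lists. The caudal epiblast genes *T* (83.7, 91.4 and 89.4 in SOX2-ON, SOX2-OFF and CEpiLC), *Cdx2* (84.5, 89.6 and 92.3), *Cdx4* (55.3, 81.2 and 74.9) and *Nkx1-2* (76.9, 81.6 and 86.4) were lowest in SOX2-ON, as was *Cdx1* (82.8, 89.9 and 91.1). The mesoderm gene *Msgn1* lay at 12.6, 85.7 and 82.2, and *Tbx6* at 82.8, 83.4 and 79.2. The neural gene *Sox1* was highest in SOX2-ON (91.0, 87.5 and 85.1), while *Pax6* (87.2, 89.2 and 87.3) hardly moved. *Sox1* lies on chromosome 8, so its difference from CEpiLC cannot be told apart from the excess of the whole chromosome. The endoderm genes *Sox17* (92.2, 93.9 and 95.7) and *Foxa2* (89.0, 93.3 and 93.5) also had start peaks in each list. An open start does not by itself mark a cell type, and the part of other cell types in these results was not tested. *Sox2* had a start peak in all lists (92.5, 91.0 and 90.4), which does not check the loss of its function in the engineered line.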

How the data were processed

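ATAC-seq, which marks open chromatin by transposase insertion, was run by the authors on 3 samples, 1 per group. Per the study's methods and the labels, the authors trimmed reads, aligned them to mm10 with BWA, removed mitochondrial reads and called broad peaks per sample with MACS2 through nf-core/atacseq. No control library is described. Per the broadPeak layout, the deposited peak rows hold a score (10 times the −log10 q), the fold enrichment (a ratio over the local background of the same library) and −log10 p-values and q-values. These averages run over broad peaks, so they fall where a peak is wide, and the caller's p grows with depth, which is unknown here. No differences in depth could be removed, so only presence, width and rank within a list were compared.

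Peaks overlapping a gene body plus 50 kb were taken (GENCODE M21 gene bodies). The 3 lists were merged by any overlap, and a list's best peak by −log10 p gave a region's percentile. A strong peak (strongest 20000) was missing from another list when under 10% of its length was covered there. A shift meant at least 20 percentile points and a width difference at least 3 times. Starts were annotated transcript starts, with peaks within 1 kb. Motifs were searched on both strands of the reference in the central 300 bases of each region, and matches of different motifs may overlap. Peaks of nearest rank were those up to 2500 ranks either side. Scripts used Python 3.11.15, numpy 2.4.6, pandas 2.3.3 and matplotlib 3.10.9 and were tested on simulated peak lists.

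All 7 genes were named, with regions chosen by rule: those at a start, the largest excess of SOX2-ON over both other samples, the largest excess of both others over SOX2-ON, and strong peaks missing from a list. Further regions were picked after their values were seen. Genes, motifs and gene lists were chosen with earlier results of these data known. Alternatives were other windows, q minimums, overlaps, strength limits, fold enrichment in place of p, percentiles within a chromosome, and leaving out *Nanog* and *Zfp42*. The width limits were chosen after the data were seen.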

Additional observations from a re-analysis of the deposited data

How the results depend on the processing

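No paired analysis was possible because every group consists of 1 sample, and for the same reason no sample could be left out. Of 116 values recomputed under other settings, 64 stayed within 1.5-fold of those reported, among them all 6 shift counts with percentiles taken within the chromosome and all 6 missing-peak counts at an overlap of 1 base. Where a value moved, the cause was not tested unless the setting itself takes fewer or more peaks. The depth is unknown, so whether a weak peak was missed for lack of reads cannot be told, and a single library decides every value. Fold enrichment and −log10 p order peaks differently.

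A 20 kb window left 77, 69 and 78 peaks for SOX2-ON, SOX2-OFF and CEpiLC, with 21 regions in SOX2-ON alone, 8 in SOX2-ON and SOX2-OFF and 12 in SOX2-OFF and CEpiLC. A 100 kb window gave 172 peaks in SOX2-OFF and 179 in CEpiLC, 23 strong SOX2-OFF peaks, 87 regions in all lists and 27 in SOX2-ON and SOX2-OFF. A −log10 q of at least 2 left 62 CEpiLC peaks, 8 regions in SOX2-ON and SOX2-OFF and 8 in SOX2-OFF and CEpiLC. At 5 it left 49, 46 and 27 peaks in SOX2-ON, SOX2-OFF and CEpiLC, 24 regions in all lists, 10 in SOX2-ON alone and 1 in SOX2-OFF and CEpiLC.

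With the strongest 50000 peaks, the windows held 50 of SOX2-ON, 50 of SOX2-OFF and 47 of CEpiLC. Of these SOX2-ON peaks 6 were missing from SOX2-OFF (against 15.9% over the genome) and 11 from CEpiLC (against 24.0%). Of the SOX2-OFF peaks 4 were missing from SOX2-ON (against 9.43%) and 2 from CEpiLC (against 11.2%). Of the CEpiLC peaks 6 were missing from SOX2-ON (against 15.7%). At this limit each of these shares lay below that of the genome. At an overlap of 50%, 5 strong SOX2-ON peaks were missing from CEpiLC (against 14.2% over the genome) and 3 SOX2-OFF peaks from SOX2-ON (against 4.62%). Also missing were 1 SOX2-OFF peak from CEpiLC (against 5.29%) and 1 CEpiLC peak from SOX2-ON (against 4.05%). Ranked by fold enrichment, 0 strong SOX2-OFF peaks were missing from SOX2-ON (against 2.225%). By the same ranking, 7 shared regions were higher in SOX2-OFF than in SOX2-ON (against 15.0%).

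With a shift of 10 points, SOX2-ON was higher than SOX2-OFF in 19 regions (against 17.5% over the genome) and lower in 14 (against 28.0%). SOX2-ON was higher than CEpiLC in 18 (against 18.5%) and lower in 18 (against 29.0%). SOX2-OFF was higher than CEpiLC in 17 (against 21.0%) and lower in 17 (against 19.9%). With a width ratio of 2, SOX2-OFF was wider than SOX2-ON in 12 regions (against 16.4%) and than CEpiLC in 24 (against 19.7%). SOX2-ON was wider than CEpiLC in 12 (against 14.7%) and CEpiLC wider than SOX2-OFF in 6 (against 5.12%).

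Without *Nanog* and *Zfp42* there were 10, 7 and 8 strong peaks in SOX2-ON, SOX2-OFF and CEpiLC, 7 regions in SOX2-ON and SOX2-OFF, 0 strong SOX2-OFF peaks missing from SOX2-ON and 6 regions higher in SOX2-ON than in SOX2-OFF. SOX2-ON was then wider than CEpiLC in 3 regions and than SOX2-OFF in 1.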
